A study of Mus musculus with 4 samples.

Results

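The suppressor of cytokine signalling (SOCS) genes Socs1 to Socs7 and their relative Cish were examined for peaks of the transcription factor STAT3 in mouse spinal cord. All 8 genes were found in the RefSeq annotation, among 21887 protein-coding genes. Every peak whose centre lay inside one of them or within 50 kb of either end was taken, which gave 45 of 88765 sham peaks and 13 of 36249 SCI peaks on chromosomes 1 to 19, X and Y. The assay was ChIP-seq, the sequencing of DNA pulled down with an antibody to STAT3, on dissociated spinal cord cells of C57BL/6 mice. Sham mice had a laminectomy at thoracic level 9. SCI mice had a moderate contusion injury of 60 kdyn at the same level. Tissue was taken at the injury epicentre after 7 days in both. Each condition had 1 STAT3 library, made from pooled tissue of 3 mice, and 1 input library, which was not analysed here. There are no replicates, so no difference between sham and SCI has a replicate check and none was tested. No sort for 1 cell type is described in the labels' protocols, so a peak cannot be assigned to astrocytes, microglia or any other cell. The number of reads behind each list is unknown, and a gene without a peak may still bind STAT3 below the level that was called.

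SOCS proteins are the feedback inhibitors of cytokine signalling through Janus kinases (JAKs) and STATs. Each has an SH2 domain, which binds phosphotyrosine on receptors or kinases, and a SOCS box, which recruits elongins B and C and cullin 5 to form a ubiquitin ligase. Cish, Socs1, Socs2 and Socs3 are classically induced by STATs after cytokine stimulation. SOCS1 and SOCS3 also block JAK activity directly, and SOCS3 binds gp130, the shared receptor chain of the interleukin-6 family. In the injured spinal cord, SOCS3 is known as a brake on STAT3 activity in astrocytes.

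The starts of the cytokine-induced members were looked at first, since that is where STAT binding is best known. RefSeq promoter sequences (GRCm38.p6) were given for 4 members, Socs1, Socs3, Socs4 and Cish. At Socs1, Socs4 and Cish the start used is the end of the gene span. For Socs3 it is 117969366, inside the span, which runs to 117970336 on the minus strand. The bases upstream of this Socs3 start are thus within the annotated gene, and those beyond its outer end were not searched. The 250 bases upstream of each start were searched for the STAT motif TTCNNNGAA and for its longer form with 4 free bases between TTC and GAA. Each reads the same on both strands, and matches to both forms may overlap. Only Socs3 had a match, to TTCNNNGAA, at chr11:117969512-117969520, beginning 154 bases before the start. It is shown with its flanks on the minus strand, and the capitals mark the match.
Socs3: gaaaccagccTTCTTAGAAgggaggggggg
The upstream bases of Socs1 (chr16:10785537-10785786, minus strand) and of Cish (chr9:107296409-107296658, plus strand) are printed because these genes are, like Socs3, classical STAT targets. Neither motif is in them, so they hold no capitals.
Socs1: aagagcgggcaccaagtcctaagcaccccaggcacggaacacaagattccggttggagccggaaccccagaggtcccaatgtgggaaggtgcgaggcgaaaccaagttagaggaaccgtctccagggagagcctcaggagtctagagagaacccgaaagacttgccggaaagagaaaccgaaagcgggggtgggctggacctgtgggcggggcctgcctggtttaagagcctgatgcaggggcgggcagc
Cish: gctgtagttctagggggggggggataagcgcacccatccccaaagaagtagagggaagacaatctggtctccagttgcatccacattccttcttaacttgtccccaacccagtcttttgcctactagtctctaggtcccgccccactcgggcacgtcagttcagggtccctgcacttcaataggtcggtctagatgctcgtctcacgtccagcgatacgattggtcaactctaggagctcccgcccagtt
Over 32851 promoters of the same length, 12.4% held either motif. TTCNNNGAA was in 7.02% and the longer form in 5.85%, and 0.469% held both. A match is a string of letters and not a measured site, and no match says only that these letters are not in the window.

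No peak of either list lay over these upstream sequences. The Socs3 match was 12.7 kb from the nearest sham peak centre and 9.99 kb from the nearest SCI peak centre. From the Socs1 start the distances were 3.40 kb in sham and 51.2 kb in SCI. From the Cish start they were 16.3 kb in sham and 14.7 kb in SCI. Only the start of Socs4 had a peak centre within 1 kb, 0.812 kb upstream of it in sham. That is 1 of 4 member starts in sham and 0 of 4 in SCI, where 6.82% and 2.94% of all 32851 starts had one.

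All 8 genes had a sham peak in their 50 kb windows, and 7 of them, all but Socs1, had an SCI peak. These counts are near the background, since at this distance 95.6% of all protein-coding genes had a peak in the sham list and 84.2% in the SCI list. Both lists had a peak at 7 members, against 82.6% of protein-coding genes. A sham peak without an SCI peak was found at 1 member (background 13.0%) and an SCI peak without a sham peak at none (background 1.60%). Sham peaks outnumbered SCI peaks at 6 members, and Socs5 and Cish had 1 peak of each list. No member had more SCI than sham peaks, which 7.05% of protein-coding genes did. With only the 36249 highest-scoring sham peaks, as many as the SCI list has, 5 members had more sham peaks and 3 more SCI peaks. No share over all protein-coding genes was counted for these equally long lists, and the 7.05% is for the full lists. The nearest SCI peak was closer to the gene than the nearest sham peak at 3 members, Socs3, Socs6 and Cish (background 17.6%).

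**Figure D1:**
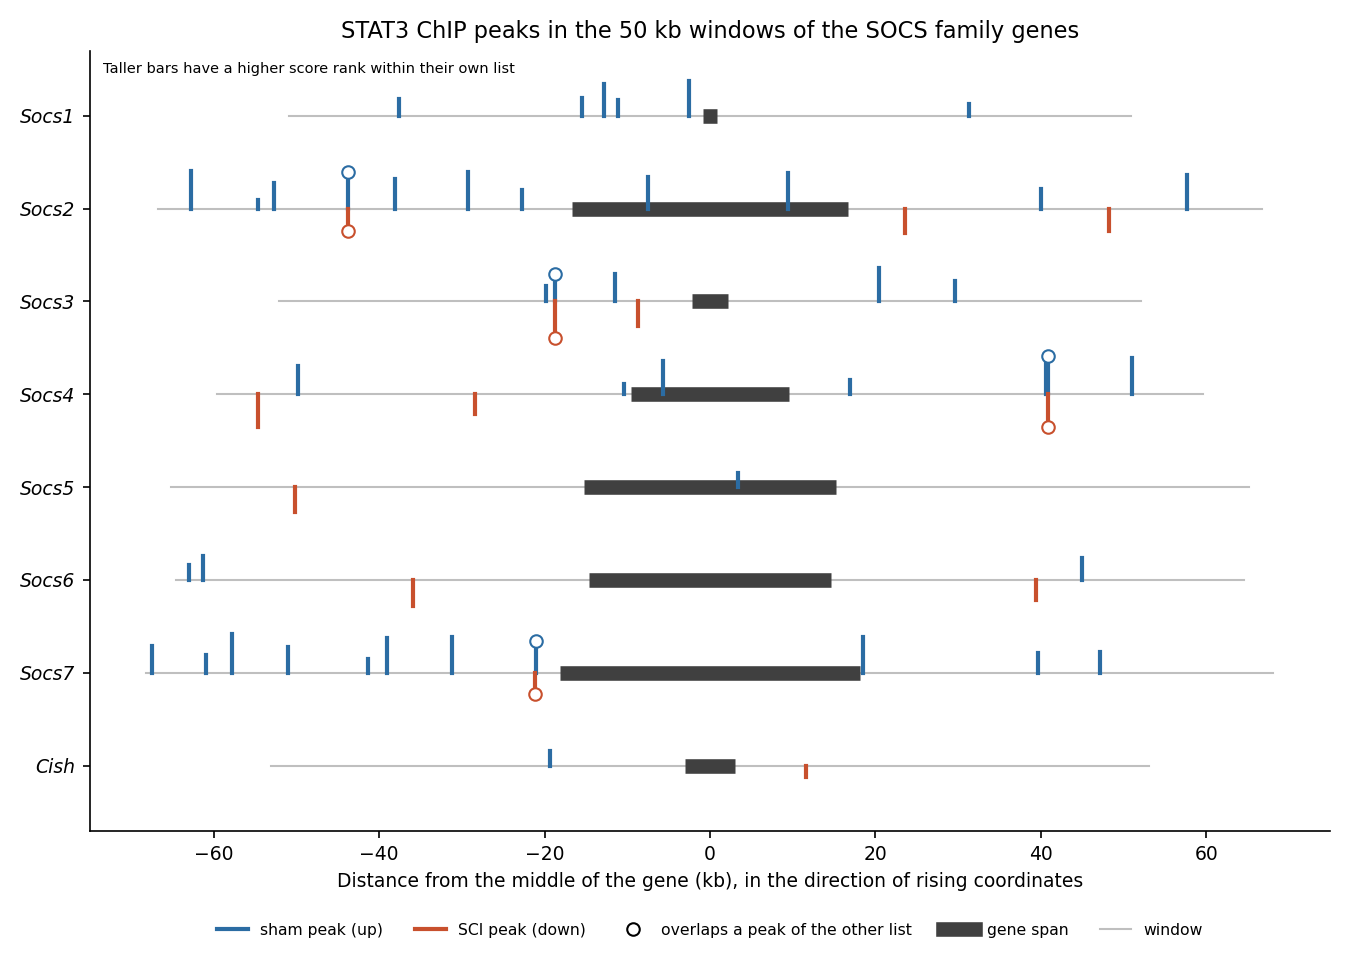
Positions of the 45 sham peaks (upward bars) and 13 SCI peaks (downward bars) along the windows of the 8 genes, in kb from the middle of each gene. Taller bars rank higher in their own list, and open circles mark the 4 positions found in both lists. No SCI bar falls on a gene span.

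Fewer members had a peak close to the gene. Within 5 kb, sham peaks were found at 5 members, Socs1, Socs2, Socs4, Socs5 and Socs7, and an SCI peak at Socs7 alone. Within 10 kb the numbers were 6 and 4. In the background, within the same 5 kb, 66.7% of protein-coding genes had one in sham and 43.9% in SCI. Longer genes have more peaks, so each member was also read against the genes in its decile of length. At the shares of their own deciles, 5.33 of the 8 members would have one in sham and 3.18 in SCI. Sham peaks lay inside 3 members, Socs2, Socs4 and Socs5, where 51.0% of protein-coding genes held one, and the decile shares give 3.99 members. No SCI peak lay inside any of the 8 genes, where 33.4% of protein-coding genes held one, and the decile shares give 2.21 members. With 8 genes and 1 library per condition these counts were not tested. A sham peak without an SCI peak within 5 kb was found at 4 members (background 29.3%), and Socs3, Socs6 and Cish had no peak of either list so close.

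In the combined windows of 961 kb the sham list had 4.68 peaks per 100 kb and the SCI list 1.35. Over the windows of all protein-coding genes the values were 4.18 and 1.67. Of the 58 peaks at the SOCS genes, 22.4% were SCI peaks (95% exact binomial interval 12.5 to 35.3%). The whole lists had 29.0%, which lies within that interval. The interval covers counting error only.

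**Figure D2:**
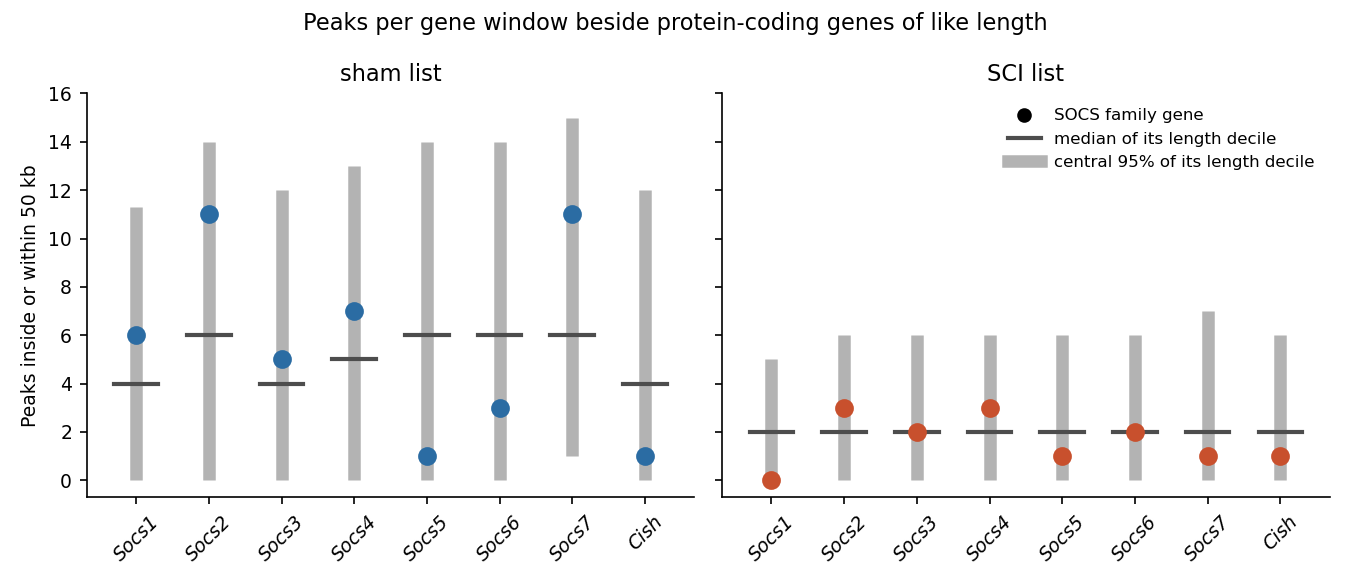
Number of peaks inside or within 50 kb of each gene (points) beside the median (dark line) and the central 95% (grey bar) of the protein-coding genes in the same decile of length. All 16 points lie within the grey bars, with Socs2 and Socs7 at 11 sham peaks each and Socs5 and Cish at 1.

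Socs1, an inhibitor of JAKs that is induced by interferons, had 6 sham peaks and no SCI peak in its window. The gene (gene ID 12703, chromosome 16, 10783808 to 10785536) is 1.73 kb long and lies on the minus strand. Its highest sham peak, at 10782041 to 10782230, scored 16.8 and stood at the top 13.2%. It lay 1.67 kb past the downstream end of the gene. A cluster of 3 more sham peaks lay 10.2 to 14.7 kb from the same end, with scores of 6.22, 6.75 and 13.0. The remaining pair lay 30.4 kb upstream, with a score of 5.42, and 36.7 kb on the downstream side, with a score of 6.35. Among the 2189 genes of its length decile, 32.2% had as many sham peaks or more and 23.2% had no SCI peak. Socs1 was thus not unusual for its length in either list.

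The absence of an SCI peak at Socs1 depended on the limit of 50 kb. An SCI peak lay just beyond it, 51.2 kb from the gene and inside Rmi2, which encodes a subunit of a complex that protects genome stability. This SCI peak, at 10836725 to 10836805, was 81 bp wide, where most SCI peaks are 164 bp wide. It scored 30.3, in the top 0.695% of the list, and overlapped a sham peak that scored 7.94, in the top 51.4%. It ranked above all 13 SCI peaks that the 50 kb rule did take. On the inner side of the limit, the peak closest to it was a sham peak 49.3 kb from Socs7, which scored 9.58.

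Socs2, best known for restraining growth hormone receptor signalling, had 11 sham and 3 SCI peaks. It was the only member with more than 1 sham peak inside the gene (gene ID 216233, chromosome 10, 95383903 to 95417321). The higher of these, at 95410007 to 95410196, scored 18.2 and stood at the top 11.1%. The other, at 95393040 to 95393229, scored 12.4 in the top 24.3%. Among genes of its length decile 12.2% had as many sham peaks or more and 41.1% as many SCI peaks or more. Sham scores in the window ran from 5, the lowest of the list, to 24.0, and 3 of the 11 peaks were in the top 10%. These 3 all lay on the side of lower coordinates, at 12.5, 27.0 and 46.0 kb from the gene. The last of them, at 95337803 to 95337992, was the highest and was held by the long noncoding RNA gene 2310039L15Rik, as were 4 other sham peaks. The protein-coding gene nearest to this highest peak was Cradd. Socs2 was the nearest for 7 of the 11 sham peaks.

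The SCI peaks at Socs2 were of middling rank, with scores of 7.10, 7.22 and 7.79. One of them, at 95356816 to 95356979, overlapped the sham peak 27.0 kb from the gene, which scored 21.7. That position stood at the top 51.5% in SCI and the top 7.20% in sham. The SCI peak nearest to Socs2, at 95424092 to 95424255, lay 6.85 kb beyond the end of higher coordinates. It was held by the noncoding gene 5730420D15Rik, and the closest sham peak centre was 14.1 kb away.

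Socs3, the member that inhibits signalling through gp130, had 5 sham and 2 SCI peaks, all of them outside the gene (gene ID 12702, chromosome 11, 117966079 to 117970336). It had the highest-ranked SCI peak of the family. That peak, at 117949401 to 117949564, scored 16.1, ranked 2664 and was at the top 7.35% of its list, the only SCI peak at the SOCS genes in the top 10%. It lay 16.6 kb past the downstream end of Socs3, in no annotated gene, and 19.9 kb from the RefSeq start used above. The sham peak there, at 117949374 to 117949563, overlapped it by 163 bp, scored 9.87 and stood at the top 36.5% of its own list.

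The second SCI peak at Socs3, at 117959448 to 117959611, scored 7.83 and lay 6.55 kb past the downstream end. The nearest sham peak, at 117956678 to 117956867, scored 9.63 and lay 9.31 kb past that end, 2.76 kb from it. Sham peaks on the upstream side lay inside Pgs1, a phospholipid synthesis gene, 18.3 and 27.5 kb from Socs3, with scores of 14.4 and 7.37. All SCI peaks and 3 of the 5 sham peaks were thus on the downstream side, within a stretch 6.55 to 17.7 kb from the gene. In the length decile of Socs3 the nearest SCI peak was as close as this or closer in 27.5% of genes, and 48.3% had 5 sham peaks or more.

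Cish, a classical target of STAT5, had 1 peak of each list, both of low rank. The gene (gene ID 12700, chromosome 9, 107296659 to 107302784) is on the plus strand. The sham peak, at 107280314 to 107280503, scored 5.93, in the top 77.5% of the list, and lay 16.3 kb upstream, inside the kinase gene Mapkapk3. The SCI peak, at 107311245 to 107311408, scored 5.32, in the top 85.8%, and lay 8.54 kb past the downstream end. The peak centres were 30.9 kb apart. In its length decile 95.2% of genes had at least 1 sham peak and 80.9% at least 1 SCI peak.

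Socs4 and Socs5, which have long N-terminal regions and are linked to epidermal growth factor receptor signalling, differed from each other. Socs4 had 7 sham and 3 SCI peaks and Socs5 had 1 of each. At Socs4 (gene ID 67296, chromosome 14, 47276920 to 47296102), 1 sham peak lay inside the gene, at 47280774 to 47280963, 3.95 kb downstream of the start. It scored 14.6, in the top 17.7%. The sham peak 0.812 kb upstream of the start, at 47276013 to 47276202, scored 5.28, in the top 89.9%, and its centre was inside the neighbouring gene Wdhd1, a replication factor.

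The highest peaks at Socs4 were far from it. A sham peak at 47327346 to 47327535, 31.3 kb past the downstream end, scored 33.2, ranked 1698 and was in the top 1.91%. The SCI peak at 47327338 to 47327501 overlapped it by 156 bp and scored 11.3, in the top 19.8%. A second sham peak beside it, at 47327007 to 47327196, scored 20.8 and did not overlap the SCI peak. The highest SCI peak of the window, at 47231744 to 47231907, scored 11.6, in the top 18.5%, and lay 45.1 kb upstream. The protein-coding gene nearest to the shared position was Mapk1ip1l and not Socs4. Of the 10 peaks in the Socs4 window, the sham peak inside the gene was the only one whose nearest protein-coding gene was Socs4.

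At Socs5 (gene ID 56468, chromosome 17, 87107278 to 87137647) the sham peak lay inside the gene, at 87125705 to 87125894, and scored 5.93, in the top 77.5%. The SCI peak, at 87072157 to 87072320, lay 35.0 kb away on the side of lower coordinates and scored 7.88, in the top 44.0%. In its length decile 96.7% of genes had at least as many sham peaks and 87.0% at least as many SCI peaks.

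Socs6 and Socs7, members linked to insulin receptor signalling, also differed from each other in their number of sham peaks. Socs6 (gene ID 54607, chromosome 18, 88865169 to 88894364) had 3 sham and 2 SCI peaks, none closer than 21.4 kb. Sham scores were 5.93, 7.82 and 8.38 and SCI scores 6.75 and 8.23. None of these positions was shared, and the SCI peak nearest to a sham peak, 24.9 kb from the gene, was 5.46 kb from it. In the length decile of Socs6, 94.8% of genes had a sham peak as close as the 30.3 kb found here or closer, and 71.3% an SCI peak as close as 21.4 kb or closer.

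Socs7 (gene ID 192157, chromosome 11, 97362292 to 97398542) had 11 sham peaks and 1 SCI peak. Its highest sham peak, at 97322652 to 97322727, had the best rank of all 45 sham peaks at these genes, with a score of 36.6 and rank 1173, in the top 1.32%. It lay 39.6 kb from Socs7, inside the mitochondrial ribosomal protein gene Mrpl45, and was 76 bp wide, where most sham peaks are 190 bp wide. The sham peak nearest to Socs7, at 97398843 to 97398892, was 50 bp wide and lay 0.326 kb beyond the end of higher coordinates, with a score of 18.4, in the top 10.8%. These were the only 2 peaks of the 58 that did not have the usual width of their list.

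The position shared at Socs7 was the closest of the family to its SOCS gene, at 2.90 kb in sham and 2.98 kb in SCI on the side of lower coordinates. The sham peak, at 97359298 to 97359487, scored 12.6, in the top 23.8%. The SCI peak, at 97359227 to 97359390, scored 6.89, in the top 56.9%, and the overlap was 93 bp. Of the other sham peaks, 3 lay inside Gpr179 and 2 inside Arhgap23, on opposite sides of Socs7. Mrpl45 held further sham peaks besides the highest one. Socs7 was the nearest protein-coding gene for only 2 of the 11 sham peaks. In its length decile 13.1% of genes had as many sham peaks or more, and 89.0% had as many SCI peaks or more.

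**Figure D3:**
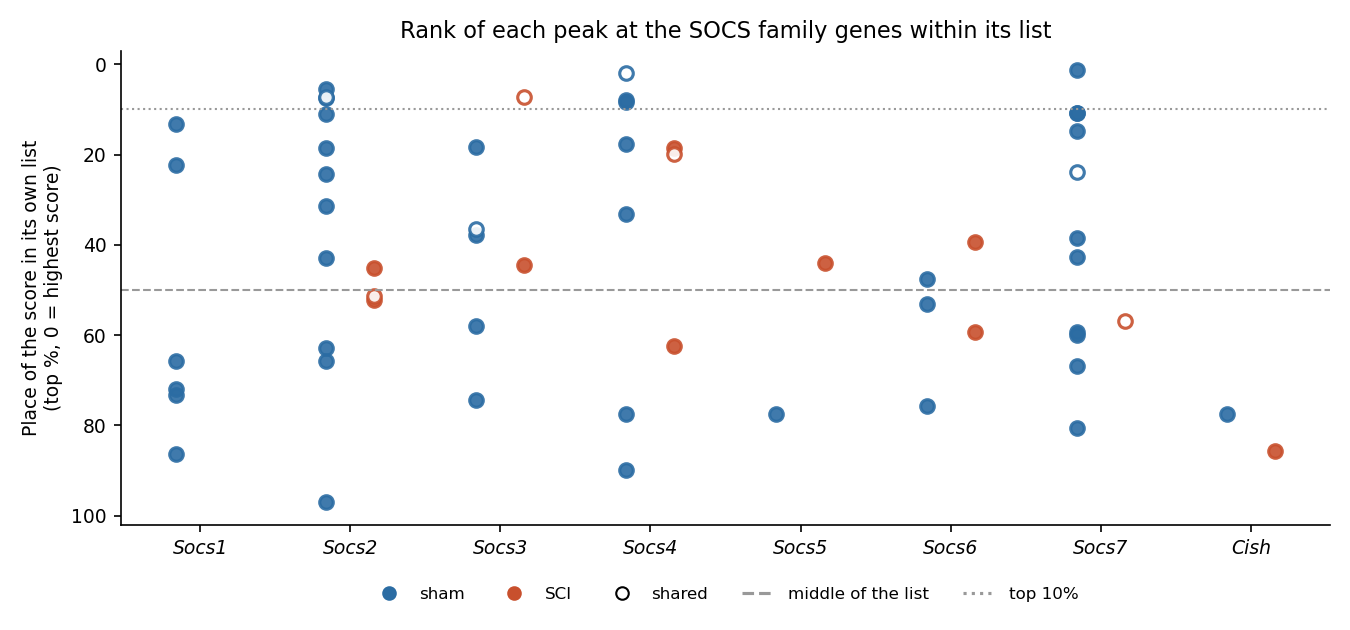
Place of every peak within its own list, as the top percent of scores (0 is the highest score), by gene. Open circles are shared positions. Sham peaks in the top 10% lie at Socs2 (3), Socs4 (3) and Socs7 (1), and the only SCI peak there is the shared one at Socs3.

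As a group, the peaks at the SOCS genes had shares of high ranks whose intervals include those of the whole lists. Of the 45 sham peaks 7 were in the top 10%, a share of 15.6% (95% exact interval 6.49 to 29.5%), and 1 of the 13 SCI peaks, 7.69% (0.195 to 36.0%). The top 50% of each list held 26 sham peaks, 57.8% (42.2 to 72.3%), and 7 SCI peaks, 53.8% (25.1 to 80.8%). These intervals are wide, cover counting error only and treat neighbouring peaks as independent. The median score was 9.58 in sham and 7.79 in SCI, where the whole lists had 8.07 and 7.37. Scores of both lists may not be on the same scale, so these are read within a list only. In ranked order, the best sham peak of a window was highest at Socs7, followed by Socs4, Socs2, Socs1, Socs3 and Socs6, with Socs5 and Cish tied at the end. For the SCI list the order was Socs3, Socs4, Socs6, Socs5, Socs2, Socs7 and Cish. A window with more peaks has more chances of a high-ranked one, and these orders make no allowance for that. The best sham peak had the SOCS gene as its nearest protein-coding gene only at Socs1, Socs5 and Socs6. For the best SCI peak this held in every window with a peak but that of Socs4.

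Positions in both lists were found at 4 members, Socs2, Socs3, Socs4 and Socs7, with peak centres 14 to 84 bp apart. A shared SCI peak within 50 kb was present at 41.5% of all protein-coding genes. Of the 13 SCI peaks 4 were shared, 30.8% (95% exact interval 9.09 to 61.4%), against 21.6% of the whole SCI list. Of the 45 sham peaks 4 were shared, 8.89% (2.48 to 21.2%), against 8.84% of the whole sham list. Both whole-list shares lie within these intervals, which cover counting error only. The shared positions lay 2.90 to 31.3 kb outside the genes, and none was inside a SOCS gene.

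Many of the peaks were closer to other genes. The SOCS gene was the nearest protein-coding gene for 21 of 45 peaks in sham and for 10 of 13 in SCI. Another annotated gene held the centre of 18 sham and 3 SCI peaks, and 23 sham and 10 SCI peaks lay in no gene. A peak in a window is therefore not assigned to the SOCS gene by its position alone.

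Peaks within 5 kb were also counted at the genes around the SOCS family in the pathway. Among 17 JAKs, STATs and receptors of the interleukin-6 family, 16 had one in sham and 13 in SCI. Of 12 other inhibitors of the pathway, such as the PIAS proteins and phosphatases, 11 and 7 did. Of 7 partners of the SOCS-box ubiquitin ligase, 5 and 4 did, and of 16 other genes for SOCS-box proteins, 11 and 10. The SOCS family had 5 and 1 of 8. Over all protein-coding genes the shares within 5 kb were 66.7% in sham and 43.9% in SCI. The low SCI count of the SOCS family depended on this limit, since within 10 kb it had 6 members with a peak in sham and 4 in SCI. Over all protein-coding genes the shares within 10 kb were 76.8% in sham and 52.2% in SCI. The SCI counts of the 4 related lists at 10 kb were 14, 10, 5 and 10. Median gene length was 42.8 kb for the JAKs, STATs and receptors and 53.9 kb for the other inhibitors. It was 10.1 kb for the ligase partners and 31.5 kb for the other SOCS-box genes. The SOCS family had 24.2 kb and all protein-coding genes 17.2 kb. Longer genes have more peaks, and these 4 lists were not read against genes of like length. The difference between the lists of genes was not tested.

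**Figure D4:**
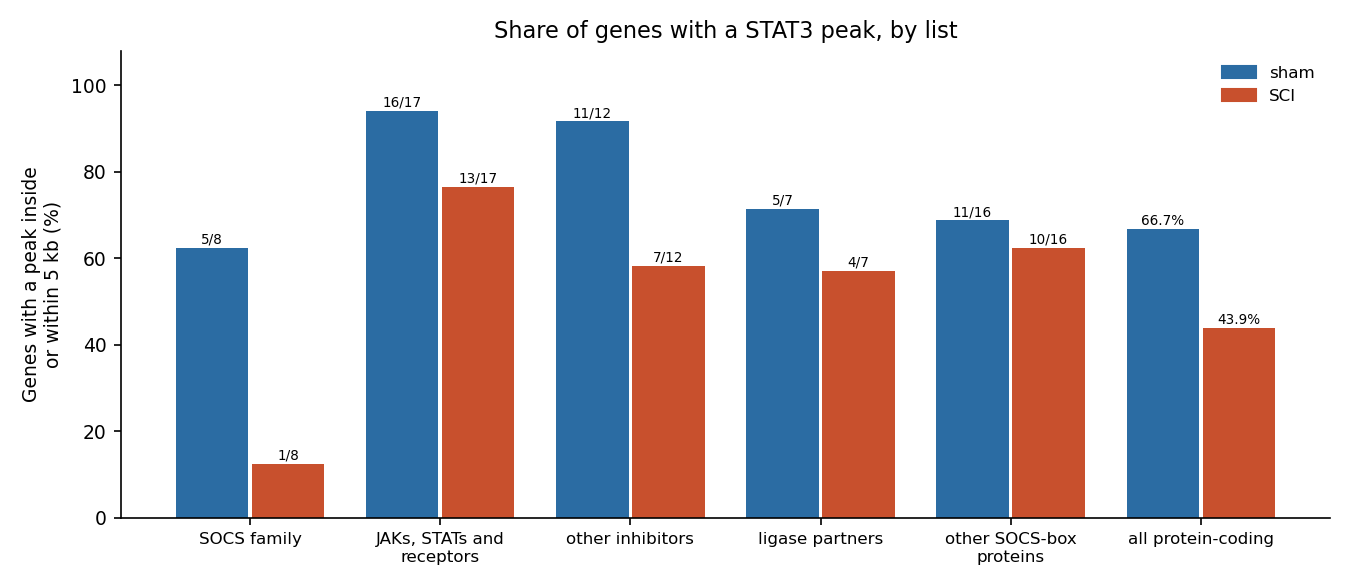
Percent of genes with a peak inside or within 5 kb in the sham (blue) and SCI (orange) lists, for the SOCS family, 4 related gene lists and all protein-coding genes. The SOCS family has 5 of 8 genes in sham and 1 of 8 in SCI, which becomes 6 and 4 within 10 kb, and all protein-coding genes have 66.7% and 43.9% within 5 kb.

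Within 50 kb sham peaks were found at every gene on these 4 lists, and SCI peaks at 16 of 17, 11 of 12, 6 of 7 and 14 of 16. These counts are near the 95.6% and 84.2% of all protein-coding genes. The best-ranked peaks of the first group lay in the windows of Jak1, Stat3 and Il6ra. Those of Stat3 and Il6ra were sham peaks 15.8 and 3.36 kb from the gene. Inside Jak1, the kinase below gp130, the SCI peak at 101155214 to 101155377 on chromosome 4 scored 29.5, in the top 0.764%, and the sham peak over it scored 30.4, in the top 2.64%. Among the other inhibitors the best-ranked were in the windows of Ptpn6, encoding the phosphatase SHP-1, Ptpn11 and Pias1, all in the sham list. Their scores were 40.9, 33.1 and 31.8, and they lay 11.5 kb from Ptpn6, inside Ptpn11 and 39.1 kb from Pias1. Cul5, the cullin that SOCS proteins recruit, had 12 sham peaks, 6 of them within 5 kb, and no SCI peak within 50 kb. A sham peak without an SCI peak at that distance was found at 13.0% of protein-coding genes. The best-ranked of the 12 scored 34.2, in the top 1.71%, and lay 22.7 kb from Cul5. Eloc, the elongin C gene, and Rnf7 had best sham scores of 52.2 and 30.5 and best SCI scores of 7.06 and 7.49. These sham peaks lay 31.6 and 43.1 kb from the gene, and the SCI peaks 43.5 and 34.9 kb. Among the other SOCS-box genes, Wsb2 held a shared position inside the gene that scored 26.4 in SCI, in the top 1.21%, and 20.7 in sham, in the top 8.09%. The best sham peaks in the windows of Spsb4 and Spsb2 scored 58.5 and 32.8 and lay 45.5 and 5.74 kb from the gene. Of these, the SCI peak at Wsb2 (60 bp) and the sham peaks at Eloc (92 bp) and Spsb4 (112 bp) were narrower than the usual width of their list.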

How the data were processed

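STAT3 ChIP-seq peak lists of 1 sham and 1 SCI library were used, each matched to its sample by title. Per the submitters' processing notes, Bowtie2 and build mm10 were used for alignment. How peaks were called, against which control and at which threshold is not recorded in the labels or files. Each deposited list holds each peak's position, a score (the authors' own value for peak strength) and a −log10 q-value by its place in the deposited layout, between 3.27 and 4.05 at these sham peaks and 3.22 and 4.36 at these SCI peaks. Scores were used only to rank and filter within a list. Read depth is unknown.

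Positions are 1-based. Genes came from RefSeq GRCm38.p6, whose primary chromosomes have mm10 coordinates. The gene table has no strand, which was taken from the promoter table for Socs1, Socs3, Socs4 and Cish. For the other members sides are given by coordinate. Peaks of both lists with at least 1 bp in common were counted as shared. Ranks and the top percent are over chromosomes 1 to 19, X and Y, with ties at their mean rank. Intervals are 95% exact binomial (Clopper-Pearson). The members and gene lists were chosen with earlier results of these data known. By rule the text names the 8 members with their peaks, the genes that hold such a peak, and up to 3 genes per related list by best-ranked peak. Rmi2, outside this rule, was chosen after its values were seen. Counting was tested on simulated data. The sequence of peaks was not searched, as no genome was used. The software was scipy 1.17.1, pandas 2.3.3 and numpy 2.4.6 under Python 3.11.15, with matplotlib 3.10.9 for plots.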

Additional observations from a re-analysis of the deposited data

How the results depend on the processing

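The number of SOCS genes with a peak and the number of peaks followed the window and the score limit. With windows of 5, 10, 25 and 100 kb the sham peaks were 8, 11, 25 and 87, the SCI peaks 1, 4, 8 and 29, and the shared SCI peaks 1, 1, 2 and 9. The 5 kb window left 5 genes in sham and 1 in SCI, and 4 genes had an SCI peak at 10 kb. At 100 kb all 8 genes, Socs1 included, had an SCI peak. At 50 kb 84.2% of protein-coding genes already had one. Shares over all protein-coding genes were not counted at 25 or 100 kb or under the score limits. Scores at or above the list median left 26 sham, 7 SCI and 2 shared peaks. The top 10% of each list left 7 sham peaks at 3 genes, 1 SCI peak at 1 gene and 0 shared peaks. When the lists were made equally long by taking the highest sham scores, 23 sham peaks remained at 5 genes beside the 13 SCI peaks. Then 3 genes had more SCI than sham peaks, and no share over all protein-coding genes was counted for these lists. When only peaks nearest to the SOCS gene were taken, sham peaks fell to 21 and SCI peaks to 10. Any overlap with the window, merging of peaks within 500 bp, and leaving out the lowest score kept all of these counts within 1.5 times. So did leaving out scores equal to 2√k − 1 for a whole number k, a choice made after seeing the data. Members with a peak then fell to 6 in sham and 6 in SCI. Cish lost its peak in both lists and Socs5 its sham peak. The 4 shared positions were counted under centres within 100, 500 or 1000 bp and with 0.5 of the narrower peak overlapped too, and 6 with centres within 5000 bp. Of 192 counts for single genes under these alternatives, 105 stayed within 1.5 times and 87 did not. No paired analysis was possible because each condition has 1 library.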
